A study of Homo sapiens with 12 samples.

Results

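The genes described here are the abundant members of the human ZNF series: every row of the authors' normalized count table whose symbol is ZNF, a number and at most 1 letter, whose normalized reads averaged 500 or more in the 12 libraries. They were chosen by these measured values. The rule found 138 genes among 492 ZNF rows and 28035 rows in all. Another 289 ZNF genes had a mean from 10 to under 500, and 65 lay under 10. The 3 members just inside the limit were ZNF304 at 500.1, ZNF839 at 502.8 and ZNF71 at 520.7, and the 3 ZNF genes just outside it were ZNF407 at 498.1, ZNF584 at 497.4 and ZNF346 at 494.0. The limit did not hang on 1 condition for most members: 130 of the 138 had a mean of at least 500 both over the 6 libraries with interferon and over the 6 without. ZNF160, ZNF304, ZNF367, ZNF529 and ZNF800 reached it only with interferon, and ZNF219, ZNF71 and ZNF839 only without it.

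The libraries are poly(A) RNA-seq of OVCAR-3, an established epithelial cell line from an ovarian adenocarcinoma, labelled wild type. There were 4 groups of 3 replicates, all at 6 hours: the solvent DMSO alone, FC-A (Fusicoccin A, a fungal glycoside that stabilises the binding of 14-3-3 proteins to partner proteins), IFNa (interferon alpha, a type I interferon), and the Combination of both agents. The series title states the question as whether interferon alpha primes cancer cells for death induced by the fusicoccin compound. No dose is given in the labels, the line is a single one, and nothing there says that replicates were separate cultures, so p-values measure the spread between these libraries, which may be technical.

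Most ZNF genes encode proteins with C2H2 zinc fingers, short loops held by a zinc ion that each read a few DNA bases and are repeated in tandem. In the largest class a KRAB domain ahead of the fingers binds the corepressor TRIM28, which brings SETDB1 and HP1 proteins and leads to H3K9 methylation, above all at transposable elements. Others carry a SCAN domain, work in corepressor complexes, or have left transcription and act on RNA, ribosomes or the spindle. Type I interferons act mainly through a factor complex that binds the interferon-stimulated response element, a sequence in the promoters of the genes they induce.

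Depth was 31.2 to 39.5 M reads per library (M for mega), and the 138 members took 0.59% to 0.626% of a library's normalized reads without IFNa and 0.558% to 0.595% with it. IFIT1, an interferon-induced gene used to check the labels, had 233 to 282 normalized reads in DMSO and 163 to 274 in FC-A. It had 100129 to 101419 in IFNa and 108904 to 118704 in the Combination, so the libraries match their labels for IFNa. This gene cannot check which libraries had FC-A. Epithelial markers were high in every group (EPCAM means of 8542 to 8917), which fits the labelled cell type, while group means of the leukocyte markers were 7.58 to 20.1 for PTPRC, at most 2.17 for LYZ and 177 to 237 for CD14. Of 5 fibroblast markers, all listed, the sum was 855 to 927 in DMSO and 1420 to 1935 in IFNa. Nearly all of it was COL1A1, and the defining markers DCN and LUM averaged 0.635 or less in every group. The 2 listed of 3 endothelial markers, VWF and CDH5, summed to 242 to 324 in DMSO and 136 to 188 in IFNa. The part of these markers in the results was not tested. Member levels varied within groups with a median coefficient of variation of 4.79%, and the median SE of a member's log2 fold change was 0.07. In bulk RNA, fewer cells of a kind and less RNA per cell cannot be told apart.

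By structure the abundant members differed from the rarer ZNF genes. A KRAB A box, found by a pattern search of translated GENCODE 29 coding sequences, was present in 50 of the 137 members with a coding sequence (36.5%) and in 207 of 277 ZNF genes below the limit (74.7%). The median number of C2H2 fingers was 9 against 11. No C2H2 finger was found in 6 members (ZNF185, ZNF259, ZNF330, ZNF503, ZNF703 and ZNF839), although the name places them in the family, and ZNF252P is a transcribed pseudogene. The pattern misses diverged KRAB copies, such as those of ZNF263 and ZNF446, so the counts are lower limits for both sets. The highest deposited mean among members was that of ZNF598 at 9539 and the median was 1036, but reads are not divided by length, so levels are not compared between genes.

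IFNa changed many of these genes by modest amounts. Against DMSO, 57 members were called higher and 19 lower (limma, Benjamini-Hochberg adjusted p under 0.05 over 15990 genes), and 62 were not called. The background is 25.4% of all tested genes called higher and 21.5% called lower. Against the 8685 genes with means of at least 500, of which 34.5% were called higher and 18.91% lower, members stood at 41.3% and 13.77%. Members called at 1.5-fold or more numbered 5 higher and 3 lower, and none reached 2-fold. The rarer ZNF genes divided evenly, with 15.92% called higher and 15.22% lower.

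The direction of the family depended on the scaling. The sum of normalized reads of a library was 31.7 to 32.7 M without IFNa and 36.3 to 37.6 M with it. With libraries scaled to their totals, an alternative chosen after the data were seen, the same contrast gave 25 members higher and 43 lower. Quantile normalization gave 36 and 35, and TMM 56 and 19. The median of all genes moved by -0.19 under the library total and by -0.09 under quantile normalization. The median of members was above that of all genes by 0.121 to 0.128 (log2) under the 4 scalings. It was above that of the abundant genes by 0.064 to 0.116. TMM and the library total shift all genes of a library alike, so these differences could hardly change under them. Quantile normalization, which could change them, gave 0.121 over all genes and 0.116 over abundant genes, against 0.128 and 0.064 as deposited. Called higher under all 4 were 25 members, 18.1% of the set, as of abundant genes (18.1%), with 14.7% of all genes tested. Called lower under all 4 were 19 members (13.8%, against 18.6% of abundant genes and 20.3% of all genes tested). The other scalings moved fold changes down or hardly at all, so falls could hardly lose their calls. Over all genes tested, 3238 of 3440 falls kept their calls under all 4, but 2345 of 4067 rises.

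**Figure D1:**
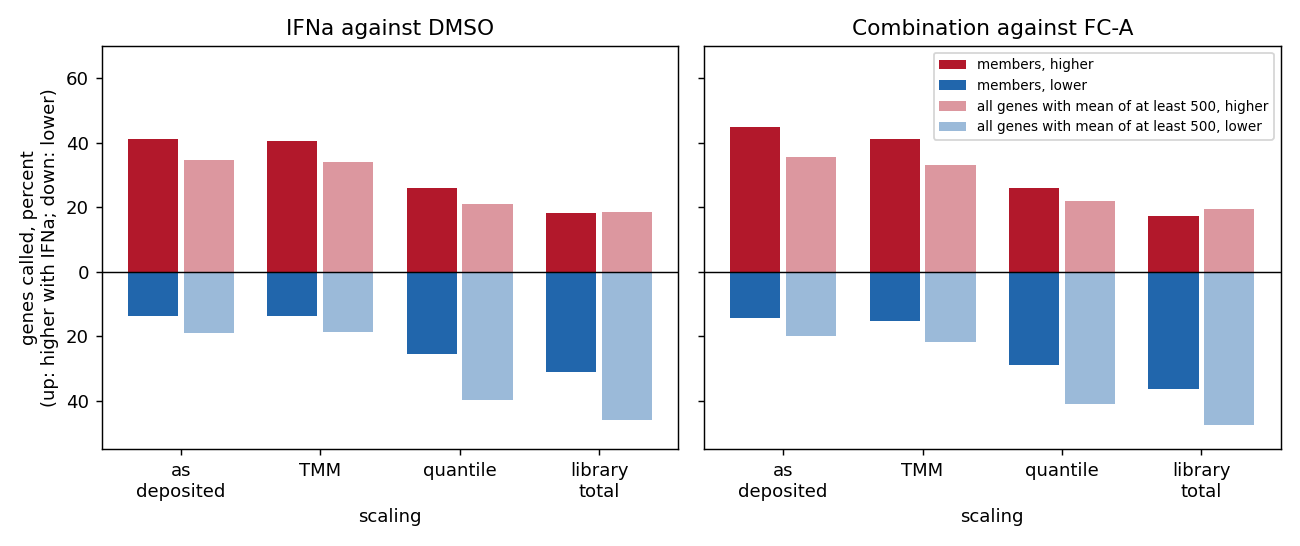
Share of genes called higher (bars above 0, percent) or lower (bars below 0, percent) under 4 scalings, for the 138 members (full colour) and all genes with a mean of at least 500 (pale), in IFNa against DMSO (left) and Combination against FC-A (right). As deposited, 41.3% of members were higher and 13.77% lower in the left panel; scaling to the library total turned this to 25 genes higher and 43 lower.

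The largest rises were in members of different kinds, and these held under all 4 scalings. ZNF618, which binds the 5-hydroxymethylcytosine reader UHRF2, had 1088, 1109 and 1167 normalized reads in DMSO and 2065, 2227 and 2124 in IFNa. The groups lay far apart, with a log2 fold change of 0.93 (SE 0.07, adjusted p = 4.38e-08), or 1.91-fold. In ZNF217, an oncogene candidate amplified in several carcinomas that recruits CtBP and LSD1, the reads were 3014, 3119.9 and 3274 in DMSO and 4921, 4754 and 5288 in IFNa. This was a log2 fold change of 0.67 (SE 0.07, adjusted p = 4.43e-06). ZNF562, a KRAB gene with 6 fingers, went from 2565, 2611 and 2701 to 4021, 3637 and 4782. Its IFNa libraries were spread more widely than its DMSO libraries, and the change was a log2 fold change of 0.65 (SE 0.12, adjusted p = 6.80e-04). ZNF121, a neighbour of ZNF562 in the genome, had 1414, 1454 and 1408 reads against 2247, 1857 and 2441, a log2 fold change of 0.60 (SE 0.09, adjusted p = 5.01e-05). All IFNa libraries lay above all DMSO libraries in each of these genes, which the rule for naming the largest changes required.

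Further members rose by smaller amounts. The KRAB gene ZNF766 had 501, 498 and 511 reads in DMSO and 753, 762 and 755 in IFNa (a log2 fold change of 0.59), among the tightest groups of the set. ZNF160, with 20 fingers and a KRAB domain, went from 456, 475 and 463 to 655, 655 and 775 (1.49-fold). ZNF160 reached the limit of 500 only with IFNa, so it was a member through the libraries in which it was high. ZNF787 had 1887, 1926 and 1674 in DMSO against 2602, 2826 and 2456 in IFNa (1.44-fold). The log2 fold changes of ZNF26, ZNF134 and ZNF462 were 0.47, 0.40 and 0.50. None of these groups overlapped, which for ZNF766, ZNF160, ZNF787 and ZNF462 was a condition of being named.

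The falls were led by ZNF704, a relative of ZNF395 in a small family with few fingers. It had 1171, 1161 and 1098 reads in DMSO and 653, 737 and 539 in IFNa, without overlap, as the naming rule required. This was a log2 fold change of -0.84 (SE 0.10, adjusted p = 1.25e-05). ZNF219, known as a partner of SOX9 in cartilage, fell from 678, 711 and 628 to 395, 363 and 406, a log2 fold change of -0.79 (SE 0.09, adjusted p = 4.49e-06). ZNF219 reached the limit of 500 only without IFNa, as did ZNF839, named below, so both were members through the libraries in which they were high. ZNF362, a paralogue of ZNF384, had 845, 861 and 756 reads in DMSO and 497, 528 and 596 in IFNa, a log2 fold change of -0.60 (SE 0.08, adjusted p = 4.09e-05). ZNF185, a LIM-domain protein of the actin cytoskeleton with no C2H2 finger, fell 1.38-fold, from 2033, 1846 and 2112 to 1350.3, 1461 and 1522. Smaller falls were those of ZNF436 (-0.43 on the log2 scale), ZNF839 (-0.35), ZNF395 (-0.20) and ZNF664 (-0.19). The 19 falls were called under each of the 4 scalings, which could hardly remove the call of a fall. With 1 library left out, 13 to 19 of them were called again, the fewest without DMSO replicate 2.

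**Figure D2:**
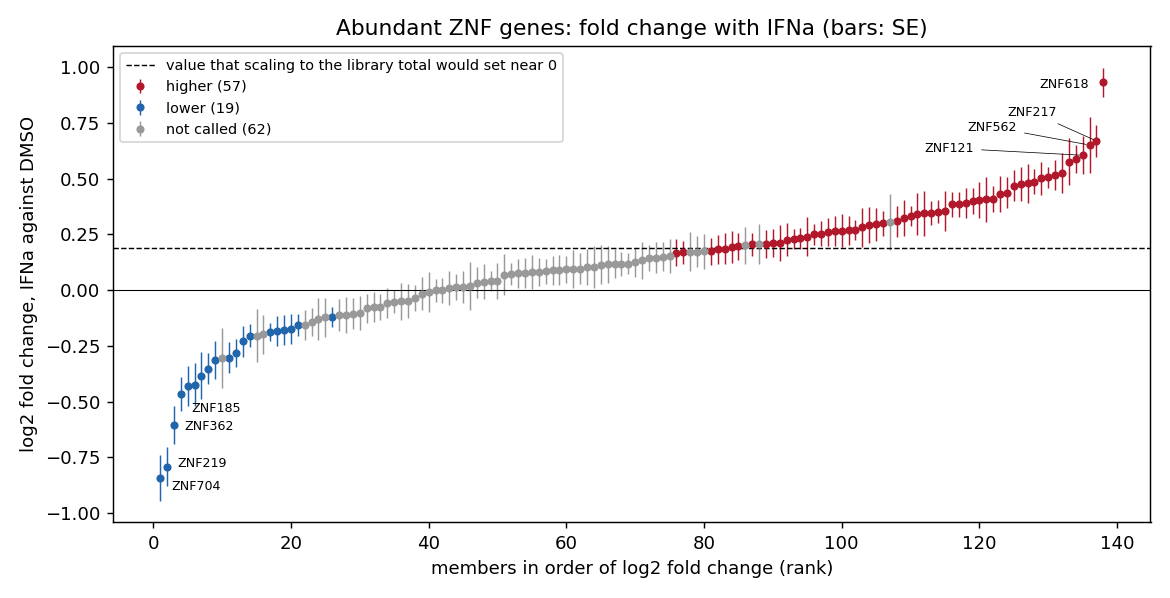
The 138 members in order of their log2 fold change in IFNa against DMSO (y axis; bars are SE), coloured by call: 57 higher, 19 lower and 62 not called. The dashed line at about 0.19 marks the value that scaling to the library total would set near 0, under which 25 genes are called higher and 43 lower.

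**Figure D3:**
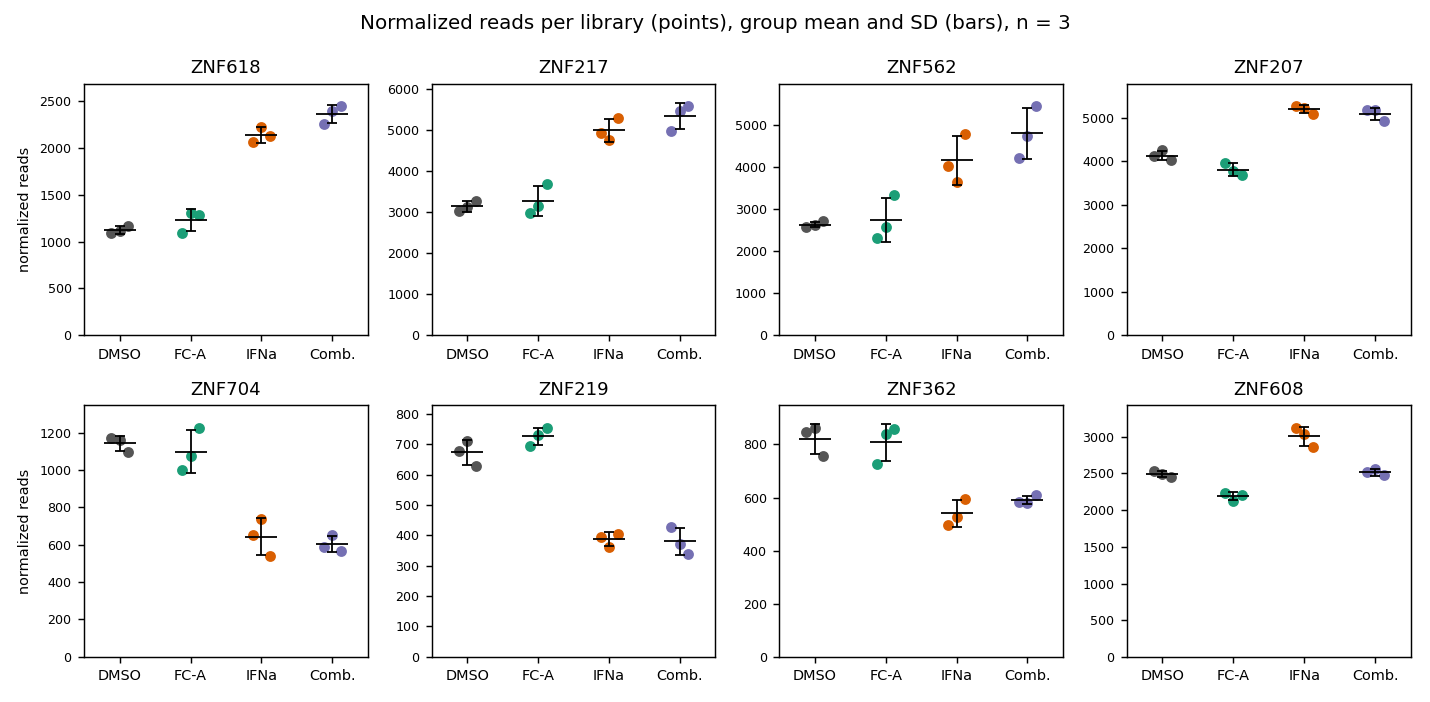
Normalized reads (y axis, from 0) in each library of the 4 groups (points), with group mean and SD (bars, n = 3), for 8 members. ZNF618, ZNF217, ZNF562 and ZNF207 are higher in the IFNa and Combination libraries, ZNF704, ZNF219 and ZNF362 are lower there, and ZNF608 is highest in IFNa.

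Of 18 members that work with chromatin or corepressor complexes, 8 were called higher with IFNa and 3 lower, and 4 and 5 under quantile normalization. Of all members 41.3% were called higher and 13.77% lower, and of genes with means of at least 500, 34.5% and 18.91%. The difference from these shares was not tested. Called higher under all 4 scalings were ZNF217, ZNF281, a repressor at GC-rich promoters, and ZNF462. ZNF281 had 962, 934 and 952 reads in DMSO and 1196, 1217 and 1306 in IFNa (1.30-fold). ZNF592 and ZNF687, partners of the chromatin reader ZMYND8, rose by 0.25 and 0.23 on the log2 scale, but only under the deposited and TMM scalings. ZNF516, which recruits CtBP, had 556, 599.9 and 615 in DMSO and 726, 757 and 869.6 in IFNa, a log2 fold change of 0.41 (SE 0.10, adjusted p = 0.00422); under the library total its adjusted p was 0.105. The 3 falls were ZNF652, a partner of the corepressor CBFA2T3, at -0.42, ZNF512B and ZNF638, which brings the HUSH silencing complex to unintegrated retroviral DNA. ZNF638 had 3050.2, 3257 and 3219 in DMSO against 2949, 2863 and 2958 in IFNa, a small difference (log2 fold change of -0.12 (SE 0.04, adjusted p = 0.0428)) that was not called in 9 of 25 alternatives, with adjusted p up to 0.146. Not called were ZNF532 at -0.07, ZNF644, a partner of the H3K9 methyltransferases EHMT1 and EHMT2, at 0.08, and the SUMO ligase ZNF451 at 0.17. ZNF532 was called lower under quantile normalization and the library total (adjusted p of 0.0117 and 0.00179), and ZNF451 was called higher in 6 of 25 alternatives, 3 of them with 1 library left out.

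Among 9 members that act on RNA, ribosomes or the spindle, 4 were called higher and 1, ZNF385A, lower, and 2 and 4 under quantile normalization. Of genes with means of at least 500, 34.5% were called higher and 18.91% lower. ZNF207, the spindle protein BuGZ that carries BUB3 to kinetochores, had 4114, 4249.8 and 4028 reads in DMSO and 5261, 5231 and 5089 in IFNa, a log2 fold change of 0.33 (SE 0.04, adjusted p = 3.21e-05), and was called under all 4 scalings. ZNF598, the ubiquitin ligase that marks collided ribosomes, had 8576, 9035 and 7774 in DMSO and 10412, 10349 and 10608 in IFNa. Its log2 fold change of 0.31 (SE 0.07, adjusted p = 0.00269) was not called under quantile normalization (adjusted p = 0.373) or the library total (adjusted p = 0.145). The call was lost at the same scalings for ZNF622, a 60S ribosome assembly factor (0.25). ZNF593, also of ribosome assembly, rose by 0.34 and lost its call under the library total alone. ZNF706 did not pass the test, at 1361, 1439 and 1423 in DMSO and 1442, 1392 and 1385 in IFNa, but was called lower under quantile normalization and the library total (adjusted p of 0.0403 and 0.0054).

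Of 5 sequence-specific activators, ZNF143, which binds many promoters and chromatin loop anchors, had 666, 683 and 648 reads in DMSO and 793, 854 and 715 in IFNa. Its log2 fold change of 0.24 (SE 0.09, adjusted p = 0.0376) was lost in 8 of 25 alternatives. ZNF76, the closest relative of ZNF143, went the other way, from 1263, 1309.8 and 1399 to 1071, 977 and 1150.0. Its log2 fold change of -0.31 (SE 0.09, adjusted p = 0.00839) was called under every scaling, as were all falls of members. ZNF384 was called higher by 0.17 as deposited, with the sign reversed and no call under quantile normalization and the library total. ZNF148 at -0.05 was not called, but was called lower under those 2 scalings (adjusted p = 0.00683 and 0.00155). Of 9 members on a list of SCAN-domain proteins, which may not be complete, 5 were called higher and 2 lower. Of genes with means of at least 500, 34.5% were called higher and 18.91% lower. The 9 gave 4 higher and 2 lower under quantile normalization, and 2 and 2 under the library total. ZNF24, a SCAN protein known as a repressor, had 963, 1081 and 967 reads against 1481, 1391 and 1435 (1.43-fold). ZNF263, which has both a SCAN and a KRAB domain, had 1078, 1061 and 1049 against 1548, 1441 and 1536 (1.42-fold), and ZNF446 fell from 665, 638 and 695 to 507, 534 and 580.5 (1.23-fold).

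By domain, 24 of the 50 members with a KRAB A box were called higher with IFNa and 4 lower, with a median log2 fold change of 0.17. Of the 87 in which the pattern found none, 33 were higher and 15 lower, with a median of 0.10. These 87 include ZNF263 and ZNF446, whose diverged KRAB copies the pattern misses, so they are not a set free of KRAB domains. Under all 4 scalings these numbers were 9 higher and 4 lower against 16 and 15. By fingers, 24 members were higher and 3 lower of the 56 with 10 or more, 24 and 9 of the 48 with 5 to 9, 8 and 5 of the 27 with 1 to 4, and 1 and 2 of the 6 with none. Under the library total the 3 classes with fingers had more members lower than higher (14 against 11, 12 against 9 and 13 against 4). Among the rarer ZNF genes 39 of 207 with the A box were higher and 22 lower. Of the 70 rarer genes in which none was found, 6 were higher and 17 lower. Of all members 41.3% were called higher and 13.77% lower, and of genes with means of at least 500, 34.5% and 18.91%. The class values are counts, and their differences from each other or from these shares were not tested.

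The partners of the KRAB proteins were read from a list of 26 genes of the TRIM28 corepressor and of H3K9 or DNA methylation. Of these, 4 were called higher and 9 lower in IFNa against DMSO. Of genes with means of at least 500, 34.5% were called higher and 18.91% lower, and of all genes 25.4% and 21.5%. The difference from these shares was not tested. The HP1 gene CBX5 fell by 0.70 on the log2 scale, TRIM24 by 0.53, ATF7IP, the partner of SETDB1, by 0.41, and the H3K9 methyltransferase EHMT2 by 0.35. SUV39H2, another H3K9 methyltransferase, rose by 0.52 and MORC3 by 0.49. These falls and these 2 rises were called under all 4 scalings, whereas the other rises, those of TRIM33 and MORC2, were not. The scalings could hardly remove the call of a fall, so this does not set falls apart from rises. TRIM28 itself had a mean of 28299 in DMSO and 27129.5 in IFNa, with a log2 fold change of -0.06 and an adjusted p of 0.522, and was not called.

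The ZNF genes lie in clusters of copies, so some members are genome neighbours. By RefSeq gene order (GRCh38.p14), 33 of the 136 members that matched stood next to another member, in 15 runs of at most 3 genes. ZNF121 and ZNF562 rose with ZNF561 between them at 0.11 and not called, and the neighbours ZNF587B and ZNF587 were both called higher. ZNF324 and ZNF446, also neighbours, were called in opposite directions. Near-identical copies can share reads, so values of such pairs are uncertain, since how shared reads were counted is not stated in the labels.

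Promoter sequence is shown next, because the members moved with an interferon and an element that interferon factors read is known. RefSeq promoters (GRCh38.p14, 250 bases before to 50 after the start) were at hand for 114 of the 138 members. The letters GAAANNGAAA, the core of the interferon-stimulated response element searched on both strands, were in 3.65% of 27305 promoters and in 1 of 114 members (0.877%). That member was ZNF207, called higher, with the match beginning 158 bases before the start. The stretch around the match, the single one among members, is given 5′ to 3′ with the matching letters in capitals.
ZNF207 (chr17:32349979-32350028, plus strand): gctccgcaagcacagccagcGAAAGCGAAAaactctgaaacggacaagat

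A further search used the letters ACTACA, any 1 base and then TTCCC, part of the sequence that ZNF143 is known to bind, and was added after the data were seen. They were in 9 of the 114 member promoters (7.89%), in 30 of 287 promoters of other ZNF genes (10.5%) and in 0.886% of all promoters, on either strand. The 9 were ZNF146, ZNF260, ZNF286A, ZNF317, ZNF331, ZNF37A, ZNF444, ZNF45 and ZNF451. ZNF317 was called higher with IFNa (0.35) and ZNF331 lower (-0.16), and the other 7 were not called. ZNF genes arose by duplication, so their promoters are not independent sequences. The match in ZNF317 and ZNF451 lies on the strand shown, and that in ZNF146 and ZNF260 on the opposite strand. The search fixes all but 1 of the matched bases, so the capitals are alike because of the search.
ZNF317 (chr19:9140297-9140348, plus strand): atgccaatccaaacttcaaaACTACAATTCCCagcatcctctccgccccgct
ZNF451 (chr6:57089975-57090026, plus strand): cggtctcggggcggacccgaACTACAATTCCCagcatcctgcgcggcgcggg
ZNF146 (chr19:36214953-36215004, plus strand): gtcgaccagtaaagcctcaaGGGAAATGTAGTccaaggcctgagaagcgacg
ZNF260 (chr19:36528362-36528413, minus strand): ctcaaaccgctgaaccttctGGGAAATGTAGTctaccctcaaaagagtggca
A match is a description of these letters, not a site at which binding was measured.

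The IFNa effect was measured again in cells that also had FC-A, by the Combination against FC-A, which shares no library with IFNa against DMSO. In it 62 members were called higher and 20 lower (44.93% and 14.49%). Of genes with means of at least 500, 35.54% were called higher and 19.88% lower, and of all genes tested 26.6% and 22.3%. As before, the split depended on scaling: 57 and 21 with TMM, 36 and 40 with quantile normalization, and 24 and 50 with the library total. Called under all 4 were 24 members higher (17.4%, against 19% of genes with means of at least 500 and 15.6% of all genes) and 20 lower (14.5%, against 19.9% and 21.5%). Of members, 52 were called higher in both contrasts, 91.23% of the first list and 83.87% of the second, and 14 lower in both (73.68% and 70%). Over all genes tested the same shares were 88.94% and 85.01% higher, and 78.05% and 75.36% lower, so those of the members were near them. No member was called in opposite directions, and of all genes 22.6% were called higher in both and 16.8% lower in both. Across the 138 members the 2 sets of log2 fold changes had a Pearson r of 0.951, with 128 of the same sign. Both sets share the variance estimate and the authors' size factors, and the same r over all genes was not computed.

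**Figure D4:**
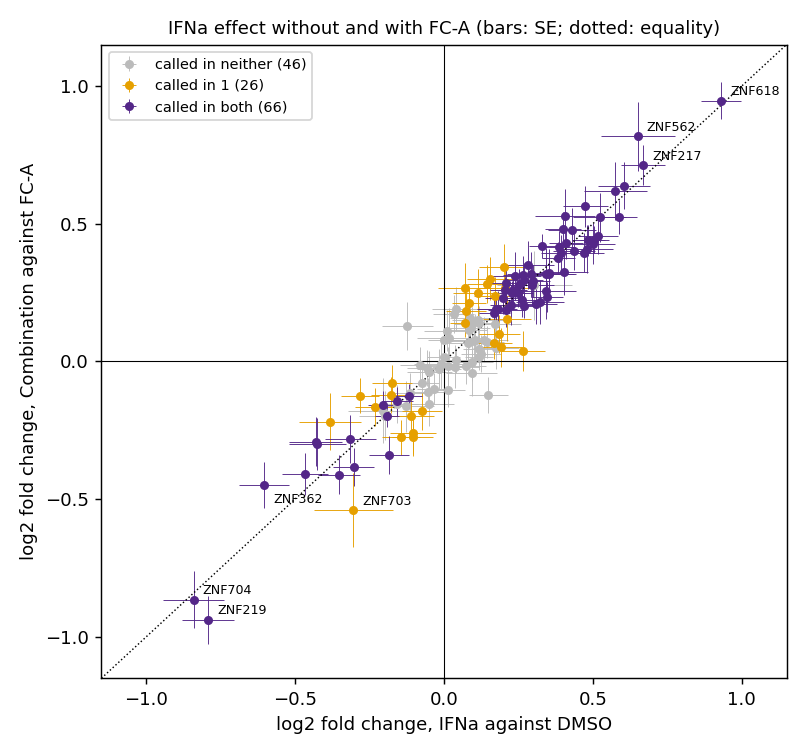
Log2 fold change of each member in IFNa against DMSO (x axis) and in Combination against FC-A (y axis), with SE bars and a dotted line of equality. The 66 members called in both (dark) run along the line from ZNF704 and ZNF219 to ZNF618.

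The leading genes were alike in this second contrast. ZNF618 had 1097, 1302 and 1289 reads in FC-A and 2256, 2392 and 2444 in the Combination, a log2 fold change of 0.95 (SE 0.07, adjusted p = 3.16e-08). ZNF562 went from 2311, 2576 and 3325 to 4217, 4727 and 5429, a log2 fold change of 0.82 (SE 0.12, adjusted p = 8.89e-05), with replicate 3 the highest in both groups. ZNF219 fell from 694, 729 and 752 to 427, 373 and 338, a log2 fold change of -0.94 (SE 0.09, adjusted p = 6.96e-07). ZNF703, a corepressor amplified in luminal breast cancer, had 791, 855 and 786 reads in FC-A and 651, 571 and 466 in the Combination, a log2 fold change of -0.54 (SE 0.13, adjusted p = 0.004). In IFNa against DMSO its groups overlapped, at 902, 970.1 and 817 against 787, 832 and 579, and it was not called (adjusted p = 0.075). It was called lower there in 6 of 25 alternatives, with adjusted p from 0.00451 to 0.0447, among them the replicate block, quantile normalization and the library total. Under the block, without the libraries numbered 3, or without IFNa replicate 3 alone, ZNF703 was also called in the Combination against IFNa. ZNF516 (0.53), ZNF26 (0.56) and ZNF134 (0.48) were among the 10 largest rises of the second contrast. ZNF644 and ZNF451 were called higher here at 0.21 and 0.24, and ZNF532 lower at -0.18. The call of ZNF532 was lost in 6 of 25 alternatives, 5 of them with 1 library left out (adjusted p up to 0.133). That of ZNF451 was lost in 4 (up to 0.659), and that of ZNF644 under quantile normalization and the library total (up to 0.858). Of the 26 corepressor genes, 4 were called higher and 13 lower. Of genes with means of at least 500, 35.54% were called higher and 19.88% lower, and of all genes 26.6% and 22.3%.

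Against DMSO the Combination gave 57 members higher and 18 lower (41.3% and 13.04%), and it shares its libraries with the contrasts above. Called higher and lower were 34.14% and 20.84% of genes with means of at least 500, and 26.1% and 22.2% of all genes. The largest value was that of ZNF618, 2.11-fold higher, the one member past 2-fold. ZNF704 stood at -0.93, ZNF219 at -0.83, ZNF562 at 0.86 and ZNF217 at 0.77 on the log2 scale. ZNF326, of the DBIRD complex that links splicing to RNA polymerase, was called lower here, at 2043, 2122 and 2037 in DMSO and 1622, 1812 and 1562 in the Combination, a log2 fold change of -0.31 (SE 0.08, adjusted p = 0.00627).

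No member passed the test in FC-A against DMSO. Where limma called 0, 11 had an unadjusted p under 0.05 (7.97%, beside 8.61% of all genes) and 0.3% of all genes were called. By edgeR the count was 0, and it was 1 by DESeq2 and in the authors' deposited table, ZNF608 in both. Fold changes of the 138 ran from -0.23 to 0.18 on the log2 scale with a median of 0.02. Against IFNa, the Combination gave 1 call, ZNF608 lower, with 18 members at an unadjusted p under 0.05 (13%, beside 13.2% of all genes) and 0.331% of all genes called. By edgeR, DESeq2 and the authors' deposited table ZNF608 was likewise the 1 member called.

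ZNF608, a large nuclear protein related to ZNF609, was higher with IFNa and lower where FC-A was added to it. Its reads were 2529, 2494 and 2451 in DMSO, 2232, 2129 and 2211 in FC-A, 3117, 3034 and 2863 in IFNa and 2516, 2567 and 2474 in the Combination. IFNa was above DMSO without overlap, at a log2 fold change of 0.27 (SE 0.05, adjusted p = 2.49e-04), and the Combination fell below IFNa at a log2 fold change of -0.25 (SE 0.05, adjusted p = 0.0352). FC-A lay below DMSO without overlap (log2 fold change of -0.19 (SE 0.05, adjusted p = 0.133)) and did not pass the test. The call against IFNa was lost in 11 of 25 alternatives, with adjusted p up to 0.246 without IFNa replicate 1, and the call of the IFNa rise was lost under quantile normalization and the library total. By value only, the next smallest p in FC-A against DMSO was that of ZNF335, a coregulator of nuclear receptors, at 1427, 1428 and 1417 in DMSO and 1708, 1578 and 1552 in FC-A (adjusted p = 0.422). In the Combination against IFNa, ZNF326 had a log2 fold change of -0.27 (SE 0.08, adjusted p = 0.212) and was not called.

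**Figure D5:**
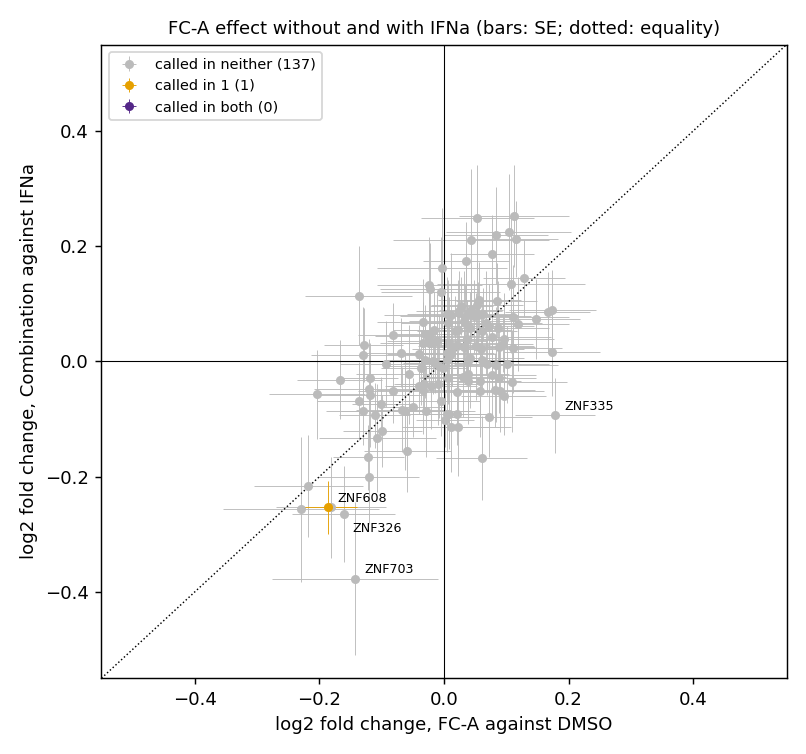
Log2 fold change of each member in FC-A against DMSO (x axis) and in Combination against IFNa (y axis), 2 contrasts with no library in common, with SE bars and a dotted line of equality. Values stay near 0, and ZNF608 is the 1 member called, in the second contrast.

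Across members these 2 measures of FC-A had a Pearson r of 0.561, with 94 of 138 of the same sign, and the variance estimate and size factors in common. The same values over all genes were not computed, so these do not measure a response of the family. The interaction, the difference between the FC-A effect with and without IFNa, gave 0 calls by limma, edgeR and DESeq2, with 2 members at an unadjusted p under 0.05 (1.45%, beside 3.92% of all genes) and 0.0% of all genes called. The smallest p was that of ZNF335, with an interaction of -0.27 (SE 0.09) on the log2 scale. Member interactions ran from -0.27 to 0.25 on the log2 scale.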

How the data were processed

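The authors deposited a table of normalized counts (a signal per gene and library), which the submitters' processing notes place on the build hg19 and after DESeq2 1.24.0, STAR 2.7.3, bcl2fastq 2.20 and FastQC. Counter and annotation: not given in the sources used here. Every value gave a whole read count, to within 0.01, by 1 factor per library, so depths and count tests used recovered reads. The log2 fold changes and p-values in the authors' deposited tables were used only as an alternative, per the file headers.

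Genes with a mean of at least 10 were tested on log2 of the value plus 1, a scale that understates changes of low genes. limma 3.58.1 (R 4.3.3) fitted 4 group means to all 12 libraries with a variance trend. The threshold was a two-sided p of 0.05 after Benjamini-Hochberg adjustment over all 15990 genes. Alternatives were edgeR 4.0.16, DESeq2 1.42.0, other pseudocounts, filters, scalings and libraries left out. The fit was tested on simulated data.

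Members and lists were chosen with earlier results of these data known. Named genes are the 10 largest called changes each way whose groups do not overlap, fixed members of known role, and, where fewer than 5 were called, the 5 smallest p. KRAB boxes and fingers were searched in coding sequences translated from GENCODE 29. Promoters come from RefSeq (GRCh38.p14), not the build of the files. Some genes and 1 promoter search are not reported here.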

Additional observations from a re-analysis of the deposited data

How the results depend on the processing

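Member calls depended most on scaling. Called higher and lower in IFNa against DMSO were 57 and 19, against 36 and 35 with quantile normalization and 25 and 43 with the library total, an alternative chosen after seeing the data. In the Combination against FC-A they were 62 and 20, against 36 and 40, and 24 and 50. In the Combination against DMSO they were 57 and 18, against 35 and 33, and 24 and 46. The cause was not tested. ZNF384 reversed to -0.0081 (quantile) and -0.0218 (library total) in IFNa against DMSO and to -0.0208 (library total) in the Combination against FC-A, and ZNF598 to -0.0356 (quantile) in the latter.

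With a member limit of 250 (239 genes) or 1000 (74 genes), which change how many genes are counted, calls in IFNa against DMSO were 117 (33 lower) and 38 (30 higher, 8 lower). They were 124 (36 lower) and 43 (35 higher, 8 lower) in the Combination against FC-A, 115 (34 lower) and 40 (33 higher, 7 lower) in the Combination against DMSO, and 2, both lower, at a limit of 250 in the Combination against IFNa.

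The labels give same-numbered libraries nothing but the number in common. Correlations of their deviations ran from 0.018 to 0.395 and were over 0.1 in 10 of 18 pairs. The pairs numbered 3 deviated together, at 0.188 to 0.395, and 7 of 12 libraries were closest to their own number. With a replicate block, calls were 66 higher and 22 lower in IFNa against DMSO, 1, lower, in FC-A against DMSO, and 9 (5 higher, 4 lower) in the Combination against IFNa. That last contrast gave 1 call, and 0 without the filter or with only its own groups, and 5 (1 higher, 4 lower) without the libraries numbered 3. FC-A against DMSO gave 1, lower, with DESeq2 and in the authors' deposited table.

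With 1 library left out, calls were 64 to 82 in IFNa against DMSO (47 to 61 higher, 13 to 21 lower), 70 to 83 in the Combination against FC-A (55 to 63, 14 to 20), 63 to 79 in the Combination against DMSO (49 to 60, 12 to 19) and 0 to 3 in the Combination against IFNa (0 to 1 higher, 0 to 2 lower), with 0 in FC-A against DMSO and the interaction. Simulated data of 15990 genes took their mean reads from the 12 libraries, with 1 fixed spread, and were tested as IFNa against DMSO. In them 35% of 1.25-fold and 85% of 2-fold changes were recovered. Far fewer genes were changed than were called in the real contrast, so these shares do not carry over to it. Members alone were not simulated.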
